A study of Mus musculus with 4 samples.

Results

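Trophectoderm lineage genes were examined in the polyadenylated RNA of mouse embryonic stem cells (mESC) that had lost Ogt, the gene of the O-GlcNAc transferase. The 10 genes were the rows of a named list among 25239 gene symbols: the transcription factors Cdx2, Eomes, Elf5, Gata3, Tfap2c and Hand1, and the keratins Krt7, Krt8, Krt18 and Krt19. The control group held 2 libraries from Ogt fl/fl mESC kept 6 days in medium with no 4-hydroxytamoxifen (4-OHT, a ligand that activates tamoxifen-dependent recombinases). The Ogt iKO (induced knockout) group held 2 libraries from Ogt fl/fl mESC given 4-OHT over the same 6 days. Both groups grew with LIF on mitomycin C-treated mouse embryonic fibroblasts and were sorted as viable cells away from these feeders, and the treated cells alone were further sorted for YFP. The labels name no cells with intact Ogt that received 4-OHT, so 4-OHT itself and the YFP sort cannot be told apart from the loss of Ogt. The replicates are numbered in the labels, but nothing says that they were separate cultures, so p values measure the spread between these libraries.

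The trophectoderm is the outer epithelium of the blastocyst and gives rise to the placenta. In the mouse embryo, nuclear YAP with TEAD4 turns on Cdx2 and Gata3 in outer cells, and Elf5, Eomes and Tfap2c maintain the trophoblast stem cells that follow, while Hand1 drives giant cell formation. Keratins form filaments from obligate pairs of a type I and a type II chain, and the pairs of keratins 8 and 18 and of keratins 7 and 19 are those of simple epithelia, the trophectoderm among them. Embryonic stem cells derive from the inner cell mass, where OCT4 (Pou5f1) and its partners hold the trophectoderm programme down.

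The total count ran from 14668489 to 16504204 per library, and levels are given in CPM (counts per 1000000 counts, on library sizes scaled by trimmed means, TMM). Ogt itself, which checks the labels, had 437 and 389 counts in Ogt iKO and 2963 and 3108 in control. Across the 14525 genes that passed the filter on low counts, 4827 were called higher and 4651 lower, and scaling by library totals alone gave 6116 and 3282. That scaling shifted the all-gene median of the log2 fold change by 0.17, and the changes below are relative to TMM scaling. The 24 fibroblast markers differed between the treated replicates, with a summed level of 4809 CPM in Ogt iKO replicate 1 and 1976 CPM in replicate 2, against 2718 and 3002 CPM in the controls.

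The 4 keratins and the factors Gata3, Eomes and Hand1 were higher without Ogt, and Tfap2c was lower. At an adjusted p under 0.05 in edgeR's quasi-likelihood test, 7 of the 10 genes were called higher (background 33.2% of all genes tested) and 1 was called lower (background 32.0%). All 7 rose at least 2-fold, by a log2 fold change of at least 1, a rule that 14.9% of all genes tested met. Of the 7, Hand1 was under that rule without control replicate 2 (0.88) and was not called with DESeq2 (adjusted p 0.0592). Besides these 7 and Tfap2c, Cdx2 was tested and not called, and Elf5 did not pass the low-count filter. The median log2 fold change of the 9 tested genes was 2.35, beside 0.024 over all genes tested. The groups did not overlap for any of the 9, where 83.2% of all genes tested also did not overlap.

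**Figure D1:**
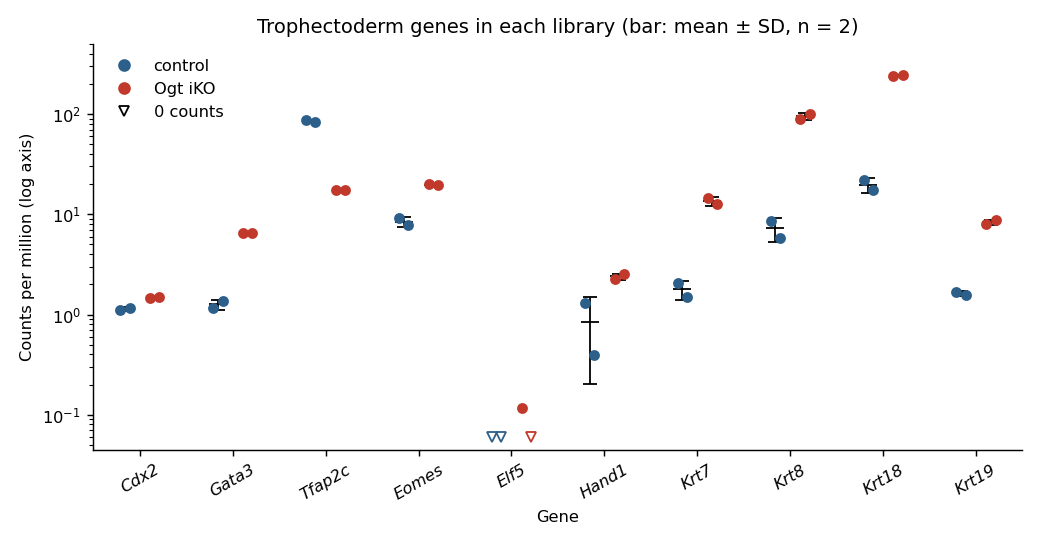
Level of each trophectoderm gene in each library, in CPM on a log axis, for control and Ogt iKO, with the mean and SD of each group (n = 2) where no library is at 0; open triangles mark libraries with 0 counts. Krt8 and Krt18 moved from 5.86 to 22.2 CPM in the controls to 89.8 to 243 CPM in Ogt iKO, while Tfap2c moved from above 84 CPM to 17.6 CPM.

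Among the factors at the top of the lineage, Cdx2 was near 1 CPM in every library. Cdx2, the homeobox factor that defines the trophectoderm in the embryo, lies on chromosome 5 from 147300900 to 147307249 (GRCm38) and was counted 25 and 23 times in the Ogt iKO libraries and 17 and 18 times in the controls. Its log2 fold change was 0.37 (with an SE of 0.301 and an edgeR adjusted p of 0.3025), so a difference was not detectable at this depth. Its paralogs Cdx1 (log2 fold change 0.20) and Cdx4 (-0.47) were not called either. Elf5, an ETS factor of trophoblast stem cells whose promoter is known for its methylation in embryonic stem cells, had 2, 0, 0 and 0 counts in Ogt iKO replicates 1 and 2 and control replicates 1 and 2. A count of 0 allowed up to 3 counts, or 0.182 to 0.205 CPM on raw totals, a limit that covers counting error only. Both groups were thus at or under that floor, and no fold is given for Elf5. Elf3, a related ETS factor of epithelia, was lower (log2 fold change -0.47, adjusted p 0.005365, edgeR).

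Gata3 showed the largest rise of the tested factors, which leave out Elf5, in the fit of all 4 libraries. Without control replicate 1, Hand1 rose more (log2 fold change 2.58 against 2.24 for Gata3). Gata3, a zinc-finger factor that acts beside Cdx2 in the trophectoderm, lies on chromosome 2 from 9857078 to 9887953 and was counted 111 and 102 times in the Ogt iKO libraries and 18 and 21 times in the controls. Its level was 1.27 CPM ± 0.146 in control and 6.53 CPM ± 0.0594 in Ogt iKO (SD, n = 2 each), or 5.16-fold, and both treated libraries lay far above both controls. The log2 fold change was 2.36 (with an SE of 0.229 and an edgeR adjusted p of 4.393e-05). Gata2, its paralog in trophoblast, rose by 1.10 (adjusted p 0.004517, edgeR), from 42 and 47 counts to 127 and 77.

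In the fit of all 4 libraries, Eomes and Hand1 rose less than Gata3. Eomes, a T-box factor of trophoblast stem cells and of the primitive streak, lies on chromosome 9 from 118478186 to 118486132 and was counted 340 and 306 times in the Ogt iKO libraries and 142 and 119 times in the controls. That was 19.8 CPM ± 0.111 against 8.46 CPM ± 1.00 (SD, n = 2 each), a log2 fold change of 1.23 (with an SE of 0.137 and an edgeR adjusted p of 9.051e-05). Hand1, a basic helix-loop-helix factor of trophoblast giant cells and of mesoderm, lies on chromosome 11 from 57828713 to 57832147 and was counted 39 and 39 times in the Ogt iKO libraries and 20 and 6 times in the controls. The treated libraries were alike, and the controls lay apart, at 1.29 and 0.391 CPM. The log2 fold change of Hand1 was 1.498 (with an SE of 0.439 and an edgeR adjusted p of 0.01549), and the call was lost without control replicate 2 (0.88, adjusted p 0.08709) and with DESeq2 (adjusted p 0.0592). Without control replicate 1 the value of Hand1 was 2.58, above that of Gata3 in the same fit (2.24). Its paralog Hand2 had 10, 3, 3 and 2 counts and was not tested.

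Tfap2c was the single member that fell. It encodes AP-2 gamma, which is expressed in trophoblast, in germ cell precursors and in naive pluripotent stem cells, and lies on chromosome 2 from 172545678 to 172558622. It was counted 301 and 273 times in the Ogt iKO libraries and 1336 and 1291 times in the controls, so its level was 17.6 CPM ± 0.00279 against 85.2 CPM ± 1.52 (SD, n = 2 each). The treated libraries lay at a level 4.84-fold below the controls. The log2 fold change was -2.28 (with an SE of 0.0792 and an edgeR adjusted p of 5.166e-07), and 0.530% of all genes tested fell further. Its paralog Tfap2a, an AP-2 factor of trophoblast and surface ectoderm, went the other way, from 44 and 29 counts in control to 112 and 90 in Ogt iKO (log2 fold change 1.38, adjusted p 0.001161, edgeR). Further paralogs lie outside the naming rule and are given after their values were seen: Tfap2b (0.06) and Gata6 (0.99) were not called, and Gata4 (1.19) was higher.

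**Figure D2:**
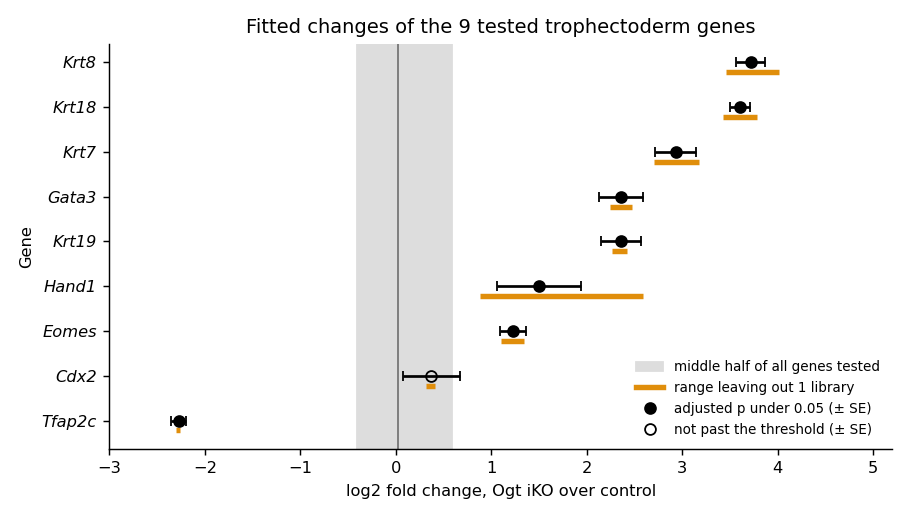
Fitted log2 fold change of Ogt iKO over control for the 9 tested genes (points, with SE; open where the adjusted p was not under 0.05), with the range over the fits that left out 1 library each (orange) and the interquartile range of all genes tested (grey, -0.40 to 0.59). Only Hand1 has a wide range, from 0.88 to 2.58, and Cdx2 alone lies inside the grey band.

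Krt8, Krt18 and Krt7 rose more than any of the tested factors (Elf5 was not tested), and Krt19 (log2 fold change 2.35) about as much as Gata3 (2.36). Krt8, the type II chain of the simple-epithelial pair, lies on chromosome 15 from 101996711 to 102004342 and was counted 1537 and 1568 times in the Ogt iKO libraries and 134 and 90 times in the controls. Its level was 7.26 CPM ± 1.97 in control and 95.4 CPM ± 7.91 in Ogt iKO (SD, n = 2 each), or 13.1-fold (log2 fold change 3.71, with an SE of 0.151 and an edgeR adjusted p of 8.697e-07). Krt18, its type I partner, lies beside it from 102028216 to 102032026 and had 4077 and 3767 counts against 344 and 266. Its level was 19.8 CPM ± 3.45 in control and 240.4 CPM ± 3.12 in Ogt iKO (SD, n = 2 each), or 12.2-fold (log2 fold change 3.60, with an SE of 0.102 and an edgeR adjusted p of 2.486e-07). They ranked 67 and 76 from the highest of 14525 genes by fitted change. For both, every treated library was above every control, where the groups of 83.2% of all genes tested also did not overlap. Krt8 was at 89.8 CPM in Ogt iKO replicate 1 and 101 CPM in replicate 2, and Krt18 at 238 and 243 CPM, while the fibroblast markers summed to 4809 and 1976 CPM in the same libraries. The part of feeder RNA in these levels was not tested.

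Krt7 and Krt19, the other simple-epithelial pair, rose from lower levels. Krt7, a type II chain of ducts and trophoblast, lies on chromosome 15 from 101412403 to 101427806 and was counted 250 and 196 times in the Ogt iKO libraries and 32 and 23 times in the controls. That was 13.6 CPM ± 1.40 against 1.78 CPM ± 0.402 (SD, n = 2 each), a log2 fold change of 2.93 (with an SE of 0.213 and an edgeR adjusted p of 1.07e-05). Krt19, the smallest type I chain, lies on chromosome 11 from 100140810 to 100145926 and had 136 and 135 counts against 26 and 24. Its level was 8.32 CPM ± 0.529 against 1.62 CPM ± 0.0815 (SD, n = 2 each), a log2 fold change of 2.35 (with an SE of 0.210 and an edgeR adjusted p of 2.848e-05). The rises of the 4 keratins thus ran from 5.13-fold for Krt19 to 13.1-fold for Krt8. Their groups did not overlap, which held for 83.2% of all genes tested.

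The proportion of the chains of the main pair overlapped between the groups. Per kb of exon, the level of Krt8 was 0.277 and 0.306 of that of Krt18 in the Ogt iKO libraries and 0.286 and 0.248 in the controls. The ratio of Krt7 plus Krt8 to Krt18 plus Krt19 per kb was 0.282 and 0.308 in Ogt iKO and 0.288 and 0.249 in control. The proportion between the pairs did not overlap: there were 29.98 and 27.9 counts of Krt18 for each count of Krt19 in Ogt iKO, against 13.2 and 11.1 in control. Krt8 likewise went from 4.19 and 3.91 counts per count of Krt7 to 6.15 and 8.0. These ratios are descriptions of the libraries, since an exact test of 2 against 2 cannot give a p below 0.333.

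Per kb of exon, the order of the genes changed between the groups. In control, Tfap2c was highest at 23.2 CPM per kb, above Krt18 at 13.8, Krt8 at 3.71, Eomes at 2.04 and Krt19 at 0.874. Below them Cdx2 (0.502), Hand1 (0.421), Gata3 (0.318) and Krt7 (0.253) followed, where the libraries of Hand1 overlapped those of each of the other 3, and those of Gata3 and Krt7 overlapped. In Ogt iKO, Krt18 was highest at 167 CPM per kb and Krt8 next at 48.7, far above all others. Tfap2c at 4.78, Eomes at 4.76 and Krt19 at 4.49 came next, of which Tfap2c and Eomes overlapped between libraries. Krt7 (1.93), Gata3 (1.64), Hand1 (1.20) and Cdx2 (0.651) closed the order, with Elf5 last in both groups. With the longest transcript in place of all exons, the order stood except that Krt7 passed Gata3 in control (0.435 against 0.394 CPM per kb).

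The rise of Krt8, Krt18 and Krt7 was compared with that of the rest of their family. The tables held 55 keratin symbols, 27 of them on chromosome 15, 27 on chromosome 11 and 1 without a position here. Only 8 passed the low-count filter: the 4 described above and Krt10, Krt17, Krt20 and Krt42, all 4 on chromosome 11. Krt20, a type I keratin of gut and urinary epithelium, rose by 2.24 (adjusted p 5.297e-05, edgeR), from 25 and 23 counts to 138 and 104. Krt42 fell from 90 and 94 counts to 9 and 6 (log2 fold change -3.68, adjusted p 1.427e-05, edgeR). Krt10 and Krt17 lie outside the naming rule and are given because so few were tested. Krt17, a keratin of stressed and basal epithelia, fell from 29 and 23 counts to 3 and 4 (adjusted p 0.0004095, edgeR), and Krt10 had 35 and 34 counts against 25 and 39 (adjusted p 0.9428, edgeR). Of the 51 keratins beyond those 4 of the trophectoderm list, 36 had at most 3 counts in every library.

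Krt8 and Krt18 took most of the keratin counts in the treated cells. Together they made up 89.8% of keratin counts in Ogt iKO replicate 1 (95% Wilson interval 89.0 to 90.5) and 90.8% in replicate 2 (90.1 to 91.5). In control they made up 63.2% (59.7 to 66.6) and 56.1% (52.2 to 59.9). The intervals cover counting error only.

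On chromosome 15, Krt7 lies near one end of the type II keratin cluster and Krt8 and Krt18 at the other. Krt18 is the one type I gene there, 23873 bases from Krt8 and on the opposite strand. Of the keratin symbols with a position here, which leave out Krt85, 23 lie between Krt7 and Krt8, and none of these passed the filter. The highest count of any of them in any library was 8, and 9 of the 23 had 0 counts in all 4 libraries.

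**Figure D3:**
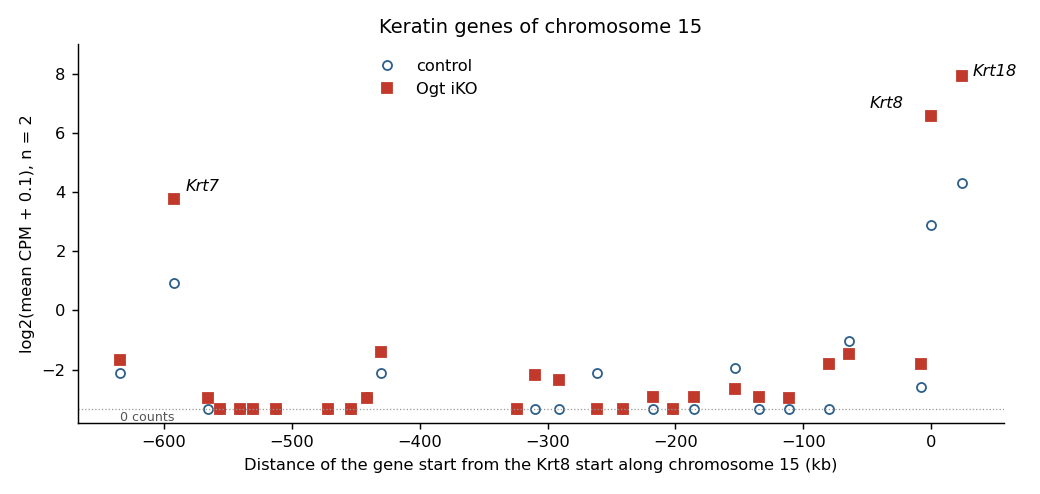
Mean level of the 27 keratin genes of chromosome 15 as log2(CPM + 0.1) in control (open circles) and Ogt iKO (filled squares), by the distance of each gene's start from that of Krt8 in kb (n = 2 per group). Krt7, Krt8 and Krt18 stand above the rest in both groups and higher in Ogt iKO. The 23 genes placed between Krt7 and Krt8 have at most 8 counts in any library. Krt85, without a position here, is not shown.

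The study concerns DNA methylation, which in mammals falls mainly on cytosines followed by guanine (CG), so the promoters of the genes that moved most are shown with each CG in capitals, beside that of Elf5. Each is the 250 bases before a RefSeq start (GRCm38.p6), read 5′ to 3′ on the gene's strand: chr15:102004343-102004592 for Krt8 (minus strand), chr15:102027966-102028215 for Krt18 (plus), chr15:101412153-101412402 for Krt7 (plus), chr2:9878601-9878850 for Gata3 (minus) and chr2:103411848-103412097 for the first of 2 Elf5 starts (plus).
Krt8: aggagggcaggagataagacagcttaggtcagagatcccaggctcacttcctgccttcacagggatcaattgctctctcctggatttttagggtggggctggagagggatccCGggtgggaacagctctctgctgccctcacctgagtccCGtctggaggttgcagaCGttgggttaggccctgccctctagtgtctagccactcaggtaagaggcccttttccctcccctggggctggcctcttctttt
Krt18: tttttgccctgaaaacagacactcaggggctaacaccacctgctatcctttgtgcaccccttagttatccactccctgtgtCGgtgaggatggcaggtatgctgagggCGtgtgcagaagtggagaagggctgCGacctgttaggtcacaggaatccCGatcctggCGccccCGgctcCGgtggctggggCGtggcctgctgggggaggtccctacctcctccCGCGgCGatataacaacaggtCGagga
Krt7: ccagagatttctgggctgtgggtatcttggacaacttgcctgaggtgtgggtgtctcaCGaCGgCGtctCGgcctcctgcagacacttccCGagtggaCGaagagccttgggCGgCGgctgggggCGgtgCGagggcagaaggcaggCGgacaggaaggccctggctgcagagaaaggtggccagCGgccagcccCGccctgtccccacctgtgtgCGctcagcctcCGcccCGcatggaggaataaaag
Gata3: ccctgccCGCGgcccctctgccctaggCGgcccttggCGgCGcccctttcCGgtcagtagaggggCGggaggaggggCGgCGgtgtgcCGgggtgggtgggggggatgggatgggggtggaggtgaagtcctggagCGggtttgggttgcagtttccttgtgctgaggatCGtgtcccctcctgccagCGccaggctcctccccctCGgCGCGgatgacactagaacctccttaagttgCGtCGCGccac
Elf5: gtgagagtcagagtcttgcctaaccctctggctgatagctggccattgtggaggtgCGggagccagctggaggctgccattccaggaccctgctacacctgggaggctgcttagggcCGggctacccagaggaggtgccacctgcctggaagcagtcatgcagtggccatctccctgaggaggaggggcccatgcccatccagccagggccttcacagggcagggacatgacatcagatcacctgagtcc

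The CG content of these windows ranged widely. Krt8 held 3 CG, Krt18 12, Krt7 16 and Gata3 19, and the Elf5 windows held 2 and 8, beside a median of 6 over the 32851 promoter windows of the reference (quartiles 2 and 16). The windows of Krt8 and Krt18 lay on either side of the median, both between the quartiles. A link of CG content with the changes was not tested. Cdx2 held 13 and Eomes 8. Windows were found for 7 of the 10 genes. The Gata3 window lies inside the span of that gene (9857078 to 9887953, minus strand), so it precedes an internal start. Methylation at these windows was not analysed here.

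Letters bound by 3 factor families of the lineage were searched on both strands of the windows. The AP-2 letters GCCNNNGGC, the same on either strand, occurred at Cdx2, Gata3, Krt7 and Krt18, which is 4 of the 7 genes, and in 13.7% of all windows. GATAA, the core read by GATA factors, occurred at Krt8, Krt18 and the second Elf5 start, 3 of the 7, and in 22.6% of all windows. The TEAD letters GGAATG occurred at the first Elf5 start, 1 of the 7, and in 12.6% of all windows. A match describes the letters and is not a measured site.

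Among the Hippo genes and the other genes of the lineage, some were higher and some lower, to be read beside the 33.2% and 32.0% of all genes tested. Of 15 genes of the Hippo pathway with its YAP and TEAD effectors, 9 were higher and 2 lower, with a median log2 fold change of 0.35. The 4 with the smallest adjusted p were Amot (2.25), Lats2 (1.90) and Amotl2 (1.51), which restrain YAP, and Tead2 (-0.86). The other genes called are named after their values were seen. Wwtr1 (0.87), Tead3 (0.62) and Tead1 (0.36) were higher, so effector genes went both ways. Vgll4 (1.75), Stk4 (0.35) and Amotl1 (0.32) were higher and Nf2 (-0.45) was lower. Amot went from 12.9 and 11.01 CPM to 55.5 and 58.8 CPM. Tead4, the TEAD factor required for the trophectoderm, was not called (log2 fold change 0.15, adjusted p 0.3652, edgeR), at 290 and 249 counts against 205 and 253.

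Of 24 tested genes of trophectoderm and trophoblast stem cells beyond the members, 12 were higher and 7 lower (median 0.37). Those named by the smallest adjusted p were Klf6 (0.87), Fabp3 (1.16), Esrrb (-0.74) and Nr0b1 (-1.51), of which Esrrb and Nr0b1 are also pluripotency genes. Of 24 markers of differentiated trophoblast, 13 passed the low-count filter, with 5 higher and 4 lower (median 0.33), shares near those of all genes tested. Tpbpa, Tpbpb, Prl3d1, Prl3b1 and Synb, which mark spongiotrophoblast, giant cells and syncytium, had 0 counts in all 4 libraries. Those named were Peg10 (1.30), an imprinted placental gene, and Tfrc (-0.80), Slc2a3 (-0.93) and Dusp9 (-1.13).

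Of 26 tested genes of blastocyst cavitation and epithelial junctions, 12 were higher and 11 lower (median -0.013), or 7 lower with scaling by library totals. Of all genes tested, 33.2% were higher and 32.0% lower. The desmosomal genes Dsp, whose product anchors keratin filaments, and Dsc2 rose by 2.10 and 2.49. Dsp went from 8.40 and 6.91 CPM to 35.5 and 30.2 CPM. The aquaporin gene Aqp3 and the sodium pump subunit gene Atp1b1, both used in filling the blastocyst cavity, fell, with log2 fold changes of -2.08 and -1.25. Not all desmosomal genes rose, since Dsg2 (-0.53) and Pkp3 (-0.92), named here after their values were seen, were lower.

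All 10 listed pluripotency factors were lower (background 32.0% of all genes tested), and each was lower in all 11 alternative settings. Pou5f1 went from 893 and 849 CPM to 489 and 574 CPM (log2 fold change -0.71). Sox2 (-1.59), Nanog (-1.47), Klf4 (-1.82) and Sall1 (-1.82) fell further. The median was -1.09.

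**Figure D4:**
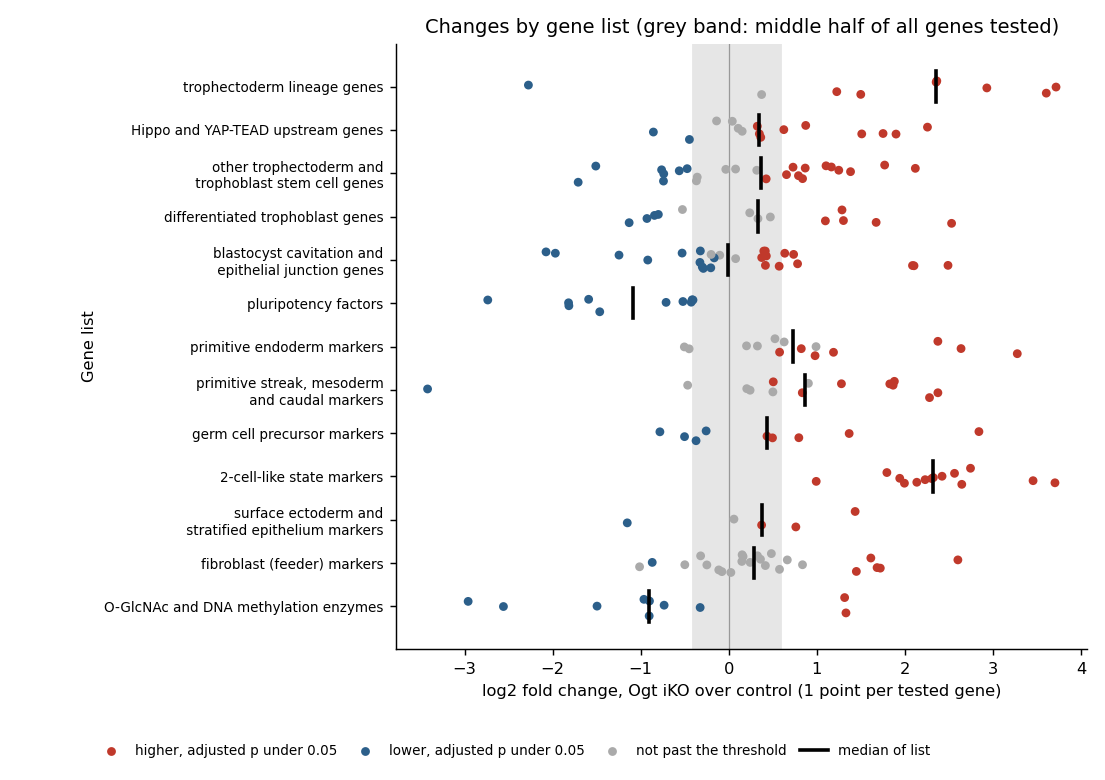
Fitted log2 fold change of each tested gene in each list (points, coloured by call), with the median of each list (black) and the interquartile range of all genes tested (grey). The trophectoderm lineage genes and the 2-cell-like markers have medians above 2, while the pluripotency factors all lie below 0.

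Several members also mark other lineages, so lists for these were read from the same fit, again beside the 33.2% higher and 32.0% lower of all genes tested. Of 14 tested primitive endoderm markers, 7 were higher and 0 lower at an adjusted p under 0.05 (median 0.73), and 12 were higher without Ogt iKO replicate 2. Dab2 rose by 2.37, Foxa2 by 2.64, Lamb1 by 0.98 and Sparc by 0.82. The summed level of this list was 1540 and 1088 CPM in Ogt iKO replicates 1 and 2 against 716 and 736 CPM in control, and Sparc, which fibroblasts also express, was at 811 and 564 CPM against 380 and 399 CPM and kept its call in 10 of 11 alternative settings. Fibroblast markers were likewise higher in replicate 1 than in replicate 2 (4809 and 1976 CPM), and their part in these levels was not tested. Of the list of primitive streak, mesoderm and caudal markers, to which Eomes and Hand1 are close, 14 were tested, and 8 were higher and 1 lower (median 0.87), or 5 higher without control replicate 2. Wnt3 (2.28), Snai1 (1.86) and Hoxb9 (1.83) rose and Wnt3a (-3.42) fell. The summed level of that list was 80.8 and 77.8 CPM against 42.9 and 38.3 CPM, and the part of these cells in the levels of Eomes and Hand1 was not tested. In bulk RNA, more cells of a type and more RNA per cell cannot be told apart.

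Of 5 tested markers of surface ectoderm and stratified epithelium, 3 were higher and 1 lower (median 0.37), a list too short to set against the 33.2% and 32.0% of all genes tested. Perp (1.43), Sfn (0.76) and Grhl2 (0.37) rose and Grhl3 (-1.15) fell. The 3 keratins of that list were not tested. Krt5 had 1 and 2 counts in Ogt iKO and 0 in both controls, Krt15 had 11 and 9 against 0 in both controls, and Krt14 had 1 and 0 against 9 and 6. Of 24 fibroblast markers, 5 were higher and 1 lower (median 0.28), among them Tagln (2.60), Acta2 (1.72), Pdgfrb (1.61) and Twist1 (1.45). The count of lower markers was 18 without Ogt iKO replicate 1, where 5 were still called higher, and the count of higher markers was 20 without Ogt iKO replicate 2. Tagln, Pdgfrb and Twist1 kept their call in 11 of 11 alternative settings and Acta2 in 10. No call of a trophectoderm gene changed when either of these libraries was left out. The labels give CD90.2 as the positive mark of the mESC and CD326 as the stain that excluded feeders, whereas CD326 is commonly used for epithelial and stem cells and CD90 for fibroblasts. Epcam (CD326) was at 280 and 287 CPM against 347 and 307 CPM, and Thy1 (CD90) at 25.5 and 8.89 CPM against 15.6 CPM in both controls.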

How the data were processed

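RNA was counted in 4 libraries, grouped by the titles in the labels. The deposited tables hold raw counts per gene symbol, 1 file per library. Per the submitters' processing notes STAR, Picard and the mm10 build were used; versions, annotation, the strand counted and the treatment of multiply mapped reads are not given in the sources used here. Krt18 resembles 2 processed pseudogenes (at least 85% identical over at least 50% of its transcript, blastn 2.17.0), neither of them a row of the tables, so its count is uncertain. Exons of the opposite strand cover 5.16% of Krt8, 3.90% of Gata3, 2.84% of Eomes and 1.09% of Krt7.

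The members and lists were chosen with earlier results of these data known. All 4 libraries entered one edgeR fit without covariates (version 4.0.16, run under R 4.3.3), with TMM scaling, the filterByExpr filter, the quasi-likelihood test and Benjamini-Hochberg adjustment over 14525 genes. Standard errors come from the fold change and its F statistic. The edgeR fit was tested on simulated data. The common biological coefficient of variation was 7.82%. Replicates differed by more than sampling noise (chi-square per degree of freedom 7.04 for Ogt iKO, 4.25 for control). List medians carry no test.

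Positions, and 250-base promoter windows, are from RefSeq (GRCm38.p6), matched by symbol for all 10 members and for 7 of them. Exon lengths are from GENCODE M21 (GRCm38). Named genes are all members, Ogt, up to 4 genes of each of 12 further lists by adjusted p, keratins called with a mean CPM of at least 1, the paralogs Cdx1, Cdx4, Gata2, Tfap2a, Hand2 and Elf3, Pou5f1, Sox2, Nanog, Tead4, Epcam and Thy1. Alternatives were RLE size factors, library totals, DESeq2 1.42.0, other filters, a robust spread, an adjusted p under 0.01, the replicate number as a block, leaving out each library, and longest transcripts for levels per kb.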

Additional observations from a re-analysis of the deposited data

How the results depend on the processing

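The count of trophectoderm genes called higher was 7 in edgeR under TMM, RLE or library-total scaling, without a filter, with a CPM of at least 1 in 2 libraries and with a robust spread. It was 6 with DESeq2, without control replicate 2 and at an adjusted p under 0.01, and Hand1 was the gene lost each time. Tfap2c was the 1 gene called lower in every setting run. No member changed sign. Of 99 member values over the 11 alternative fits, 97 kept their call and 2, both of Hand1, did not. The samples share replicate numbers but nothing shows that these pair them: the deviations of same-numbered libraries from their group means had a correlation of 0.086 across 14525 genes. With the replicate block 7 members were higher and 1 lower, and 9641 genes were called in all, against 9478 without it. Leaving out 1 library gave from 7883 to 9502 calls over all genes. Where a library was left out, the lone library of its group was assumed to vary like the other group. Depth limits Elf5, Cdx2 and Hand1, which had from 0 to 39 counts per library.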

Other observations

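Of all genes tested, 33.2% were called higher and 32.0% lower, and the counts of the following lists stand beside these shares. Of 9 germ cell precursor markers, a population in which Tfap2c is also expressed, 5 were higher and 4 lower (median log2 fold change 0.43, beside 0.024 over all genes tested). Dazl (2.84) and Dppa3 (0.79) rose, while Kit (-0.78) and Ifitm3 (-0.50) fell. The count of lower genes in this list was 2 with scaling by library totals or without Ogt iKO replicate 1, and the count of higher genes was 3 without control replicate 1. Of 14 tested markers of the 2-cell-like state, 14 were higher (median 2.31), among them Tcstv3 (3.70), Zscan4d (2.30) and Usp17le (2.23). Several of these have near-identical copies, so their single values are uncertain. Of 10 genes of O-GlcNAc and DNA methylation enzymes, 2 were higher and 8 lower (median -0.90). Ogt (-2.96) and Oga (-2.56) fell, and Tet3 (1.33) and Dnmt3l (1.31) rose.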
